A study of Mus musculus with 12 samples.

Results

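The 10 genes described here encode the 3 TGF-beta ligands (Tgfb1, Tgfb2 and Tgfb3), their type I and type II receptors (Tgfbr1 and Tgfbr2), the signal carriers Smad2 and Smad3, the inhibitors Smad7 and Skil, and the secreted matrix protein Tgfbi. They were picked by symbol, though with earlier results of these data known, from the 35303 gene symbols of the count table. All 10 were among the 17676 symbols tested. RNA was sequenced from myeloid-derived suppressor cells (MDSCs) that had been grown from the marrow of wild-type female C57BL/6 mice aged 6 to 10 weeks with IL-6 and GM-CSF and selected magnetically as CD11b+Gr1+ cells. The 4 MDSC libraries came from unmodified cells, the 4 MDSC-NP-Blk libraries from cells with blank PLGA nanoparticles clicked onto azide sugars of their surface, and the 4 CITED libraries from cells with rapamycin-loaded particles attached in the same way. All 3 groups were then held for 24 hours in medium with IL-6 at 40 ng/ml. The cells are a mixture of polymorphonuclear and monocytic forms made in culture, without a tumor or an inflamed tissue, and the tissue field of the labels, which names the central nervous system, goes against that origin. Whether the unmodified cells had also been fed the azide sugar is not stated.

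TGF-beta is made as a latent complex, which has to be released from its propeptide and carrier proteins before it can bind TGFBR2. That receptor recruits and phosphorylates TGFBR1, which phosphorylates SMAD2 and SMAD3, and these enter the nucleus with SMAD4 to switch target genes on or off. SMAD7 and the nuclear repressor SKIL are induced by the pathway and oppose it. In suppressor myeloid cells TGF-beta is known as a secreted product that restrains T cells and favors regulatory T cells, and FKBP12, the protein that rapamycin binds, also sits on TGFBR1 and keeps it quiet.

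Promoter sequences are shown for the main ligand, both receptors, Smad3 and Tgfbi, so that genes that rose and genes that fell or turned with the correction stand side by side. They are the 250 bases before the start of the gene, 5′ to 3′ on the strand of the gene, from RefSeq in build GRCm38.p6, in which 6 of the 10 genes had an entry. Capitals mark the letters GGGCGG (GC box), CAGAC (Smad box) and GCGTGGGCG (EGR family), each read on either strand.
Tgfb1, chr7:25686752-25687001, plus strand: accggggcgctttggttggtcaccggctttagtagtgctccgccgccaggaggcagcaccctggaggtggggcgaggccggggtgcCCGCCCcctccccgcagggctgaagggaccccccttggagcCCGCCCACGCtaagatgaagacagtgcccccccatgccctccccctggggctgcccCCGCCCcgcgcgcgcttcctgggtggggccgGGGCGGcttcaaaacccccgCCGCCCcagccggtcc
Tgfbr1, chr4:47352972-47353221, plus strand: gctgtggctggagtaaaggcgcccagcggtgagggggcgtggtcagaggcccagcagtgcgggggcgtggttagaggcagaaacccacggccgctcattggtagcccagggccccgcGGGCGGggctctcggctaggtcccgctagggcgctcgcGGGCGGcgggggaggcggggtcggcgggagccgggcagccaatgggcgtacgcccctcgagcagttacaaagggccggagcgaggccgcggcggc
Tgfbr2, chr9:116175364-116175613, minus strand: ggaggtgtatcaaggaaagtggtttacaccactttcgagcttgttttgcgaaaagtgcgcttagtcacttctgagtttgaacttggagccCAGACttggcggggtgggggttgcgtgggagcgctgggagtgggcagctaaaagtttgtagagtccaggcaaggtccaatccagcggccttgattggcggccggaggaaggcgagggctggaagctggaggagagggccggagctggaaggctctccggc
Smad3, chr9:63757995-63758244, minus strand: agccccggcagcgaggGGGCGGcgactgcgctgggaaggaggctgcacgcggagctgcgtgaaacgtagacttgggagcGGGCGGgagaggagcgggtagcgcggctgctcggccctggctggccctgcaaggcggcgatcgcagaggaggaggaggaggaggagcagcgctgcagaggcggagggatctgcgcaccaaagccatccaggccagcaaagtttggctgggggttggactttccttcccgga
Tgfbi, chr13:56609336-56609585, plus strand: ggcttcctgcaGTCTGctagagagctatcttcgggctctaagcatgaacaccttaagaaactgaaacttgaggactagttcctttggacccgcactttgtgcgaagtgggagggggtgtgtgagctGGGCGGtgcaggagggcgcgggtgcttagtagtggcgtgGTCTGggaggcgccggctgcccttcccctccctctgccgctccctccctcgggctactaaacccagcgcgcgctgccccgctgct
The Tgfb1 stretch was 75.2% G and C and held 5 GC boxes, of which 1 overlapped the EGR letters, and it held no Smad box. The Tgfbr1 and Smad3 stretches held 2 GC boxes each and no Smad box. The Tgfbr2 stretch held 1 Smad box and no GC box, and the Tgfbi stretch 2 Smad boxes and 1 GC box. Of the entries not printed, Tgfb2 held 2 Smad boxes and a further start of Tgfbr1 (chr4:47385966-47386215) held 1, with no GC box in either. The Smad box thus stood before Tgfbi, which rose, and before Tgfb2, which had no detectable difference. It also stood before Tgfbr2 and the further start of Tgfbr1, genes whose falls did not hold once transcript length was removed. Among 32851 promoters of this length, 32.7% held a GC box, 42.2% a Smad box and 0.536% the EGR letters, and the palindromic Smad element GTCTAGAC (0.167% of promoters) and the AP-1 letters TGANTCA (6.75%) were in none of the stretches printed.

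The libraries held 20604809 to 37855478 counts, and a count of 0 allowed up to 3 counts, or 7.92e-06% to 1.46e-05% of a library, for counting error only. Values below are normalized counts (counts scaled by library size and TMM factor to a library of average size), and a gene passed the test at a Benjamini-Hochberg adjusted p below 0.05 in the quasi-likelihood test of edgeR. Of the gate markers, Itgam (CD11b), Ly6g and Ly6c2 were detected in all 12 libraries, but 91.3% of the 31-base words of the Itgam transcript, 53.9% of those of Ly6c2 and a smaller share of those of Ly6g occur in other genes, so their counts are uncertain. Relative expression followed transcript length differently across libraries, with a rank correlation over 10543 genes of 0.22 to 0.35 (MDSC), -0.42 to 0.09 (MDSC-NP-Blk) and -0.34 to -0.19 (CITED), and MDSC-NP-Blk replicates 1 (-0.42) and 4 (-0.24) stood apart from replicates 2 (-0.05) and 3 (0.09) of their group. With library totals in place of TMM factors, the median log2 fold change of the 10556 genes with a mean count above 50 moved from 0.02 to -0.26 for CITED against MDSC and from 0.00 to -0.26 for MDSC-NP-Blk against MDSC.

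In CITED against MDSC, Tgfb1, Tgfbi, Smad7 and Skil rose and Tgfb3, Tgfbr1 and Smad3 fell. That is 4 genes higher, 3 lower and 3 that did not pass, beside 44.5% of all genes tested that passed (22.2% higher and 22.2% lower). In MDSC-NP-Blk against MDSC, the same 4 genes rose, Tgfbr1 and Tgfbr2 fell, and 4 did not pass, beside 38.6% of all genes (19.9% higher, 18.6% lower). In CITED against MDSC-NP-Blk, only Tgfb1 and Tgfbi passed, both higher, beside 22.0% of all genes (10.5% higher, 11.4% lower). Since 9 of the 10 genes had a mean count above 50, the shares among such genes (67.9%, 60.4% and 34.9%) are the nearer background, and the counts of the 10 genes lay near or below them. The libraries of the 2 groups did not overlap for 6, 5 and 3 of the 10 genes in the 3 comparisons, beside 42.5%, 35.6% and 21.2% of all genes. The first 2 comparisons share the MDSC libraries, and the last shares each of its groups with 1 of them. The median log2 fold change of the 10 genes was 0.14, 0.09 and 0.02 in the 3 comparisons, against -0.05, -0.03 and 0.00 over all genes tested. Without Tgfb2, the 1 gene with a mean count below 50, it was -0.045, -0.12 and 0.036. Over all genes above that mean it was 0.02, 0.00 and 0.01. In both comparisons against MDSC, 5 of the 10 values were above 0, so leaving out any 1 of those 5 genes turned the median below 0. The splits into higher and lower calls depended on the scaling. With library totals alone the counts were 2 higher and 5 lower for CITED against MDSC and 2 higher and 4 lower for MDSC-NP-Blk against MDSC. In the same comparisons the calls over all genes went from 3930 higher and 3932 lower to 2192 and 6323, and from 3522 and 3293 to 1662 and 6107.

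**Figure D1:**
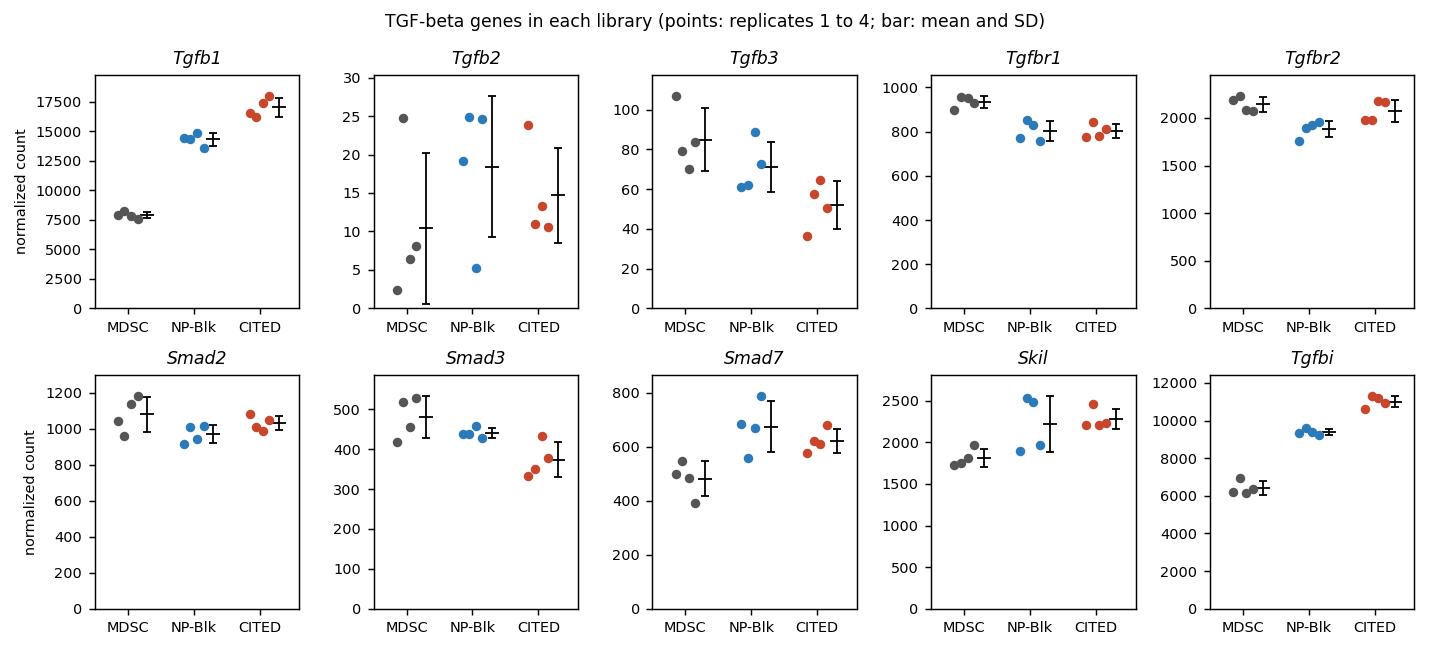
Normalized counts of the 10 TGF-beta genes (y axes, from 0) in the 12 libraries (points, replicates 1 to 4 from left to right in each group; NP-Blk is MDSC-NP-Blk), with the mean and SD of each group. Tgfb1 and Tgfbi step up from MDSC to MDSC-NP-Blk to CITED without overlap, and Tgfb2 scatters between 2.36 and 24.8.

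Among the ligands, Tgfb1 (chr7:25386390-25404506 in GRCm39, plus strand), the form that blood cells mainly make, rose by more than any other of the 10 genes that passed. Its normalized counts were 7879, 8257, 7839 and 7601 for MDSC, 14432, 14327, 14878 and 13582 for MDSC-NP-Blk, and 16552, 16228, 17365 and 17997 for CITED. No library of any group overlapped another group, and the group means were 7894 ± 271, 14305 ± 538 and 17036 ± 800 (SD, n = 4 each). On the log2 scale the fold change was 1.11 in CITED against MDSC (SE 0.0470, adjusted p = 5.07e-20), a 2.16-fold difference, and 0.86 in MDSC-NP-Blk against MDSC (SE 0.0468, adjusted p = 1.49e-16), a 1.81-fold difference. Tgfb1 was the only 1 of the 10 to pass an absolute log2 fold change of 1 together with the adjusted p, in the first of these, as did 9.99% of all genes, beside 4.74% in MDSC-NP-Blk against MDSC and 2.65% in CITED against MDSC-NP-Blk. The step from blank to rapamycin-loaded particles was smaller, 0.25 (SE 0.0464, adjusted p = 7.21e-05), with a 95% interval of 0.16 to 0.35. Its size depended on the correction: with transcript length and GC content removed, it was 0.68 in CITED against MDSC, 0.57 in MDSC-NP-Blk against MDSC, and 0.12 in CITED against MDSC-NP-Blk (adjusted p = 0.0506).

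The summed markers of megakaryocytes and platelets, cells known to be rich in TGF-beta 1, were higher in both particle groups than in MDSC. They summed to 5550 to 6509 (MDSC), 8084 to 8852 (MDSC-NP-Blk) and 8618 to 9240 (CITED), with 9 of the 10 markers at a mean above 50 and none at or under 3 counts in every library, and the 2 particle groups overlapped, as they did not for Tgfb1. For 1 of these markers, Gp1bb, 97.3% of the 31-base words of the transcript occur in other genes, so its counts are uncertain. Markers of monocytes and macrophages summed to 54919 to 57973, 68275 to 72353 and 61318 to 65079, and those of neutrophils to 852135 to 953473, 1218666 to 1284709 and 902306 to 1019649 in the same order, all of them above 50. Both of those lists were highest in MDSC-NP-Blk, whereas Tgfb1 was highest in CITED. Markers of stroma and fibroblasts were lowest in CITED, at 1629 to 1867 against 4236 to 4511 (MDSC) and 3918 to 4347 (MDSC-NP-Blk), with 4 of 10 (Col3a1, Pdgfra, Lum and Cxcl12) at or under 3 counts in every library and 2 of 10 at a mean above 50. Markers of B cells were lowest in CITED too, at 363 to 387 against 830 to 988 (MDSC) and 692 to 830 (MDSC-NP-Blk), with 2 of the 9 measured at a mean above 50. The stroma and B cell sums thus rested mainly on few genes. The part of any of these cells in the level of Tgfb1 was not tested, and in such bulk samples fewer cells of a type and less RNA per cell cannot be told apart.

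Tgfb3 (chr12:86102756-86126301, minus strand), which is known from wound repair and palate formation, was scarce and fell. Its values were 107, 79.0, 70.0 and 83.5 for MDSC, 61.2, 62.1, 88.6 and 72.5 for MDSC-NP-Blk, and 36.4, 57.5, 64.4 and 50.3 for CITED. All 4 CITED libraries lay below all 4 MDSC libraries, and MDSC-NP-Blk overlapped both groups. The log2 fold change was -0.70 in CITED against MDSC (SE 0.228, adjusted p = 0.0111), or 1.63-fold lower, and this call rested on MDSC replicate 1, without which it was -0.57 (adjusted p = 0.0678). Against MDSC, MDSC-NP-Blk stood at -0.26 (adjusted p = 0.379), and CITED against MDSC-NP-Blk at -0.44 (adjusted p = 0.195). Annotated exons of other genes on the opposite strand (Ttll5, Gm37804 and Gm48008) cover 13.0% of the exon bases of Tgfb3, so part of its reads could belong to them.

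Tgfb2 (chr1:186354985-186438294, minus strand), which is known from heart and skeletal development, was close to the limit of detection, with 3 to 36 raw counts a library. Its normalized counts averaged 10.4 ± 9.86 for MDSC, 18.4 ± 9.20 for MDSC-NP-Blk, and 14.7 ± 6.20 for CITED (SD, n = 4 each). The groups overlapped throughout, and no difference was detectable at this depth. For CITED against MDSC the 95% interval of the log2 fold change ran from -0.75 to 1.75, which leaves both directions possible.

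Tgfbr1 fell in both particle groups and Tgfbr2 in MDSC-NP-Blk, by much less than the main ligand rose. Tgfbr1 (chr4:47353134-47414931, plus strand), the type I receptor kinase, had 897, 957, 953 and 931 normalized counts for MDSC, 773, 852, 832 and 757 for MDSC-NP-Blk, and 778, 845, 782 and 811 for CITED. Every library with particles lay below every MDSC library, while blank and loaded particles overlapped. The log2 fold change was -0.22 in CITED (SE 0.0710, adjusted p = 0.0114) and -0.22 in MDSC-NP-Blk (SE 0.0707, adjusted p = 0.0137), or 1.16-fold lower in each. Between blank and loaded particles it was 0.00 in size, with a 95% interval of -0.15 to 0.14. Both calls were lost once transcript length was removed, at -0.02 for CITED and -0.08 for MDSC-NP-Blk, and with GC content removed as well the CITED value changed sign, to 0.10.

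Tgfbr2 (chr9:115913361-116004800, minus strand), the type II receptor that binds the ligand first, gave 2185, 2232, 2081 and 2069 for MDSC, 1758, 1899, 1927 and 1954 for MDSC-NP-Blk, and 1979, 1975, 2179 and 2167 for CITED. All MDSC-NP-Blk libraries lay below the other groups, and those of CITED overlapped MDSC. It fell in MDSC-NP-Blk against MDSC, at a log2 fold change of -0.18 (SE 0.0577, adjusted p = 0.00999). For CITED against MDSC it was -0.05 (SE 0.0577, adjusted p = 0.557; 95% interval -0.16 to 0.07), and for CITED against MDSC-NP-Blk 0.14 (SE 0.0580, adjusted p = 0.0878, and 0.0338 with DESeq2). Its transcript is among the longest of the 10, and with length removed both values against MDSC became positive, at 0.29 for CITED (adjusted p = 3.89e-05) and 0.05 for MDSC-NP-Blk, and that for CITED against MDSC-NP-Blk passed, at 0.23 (adjusted p = 0.00149). The direction of Tgfbr2 thus depended on the correction.

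**Figure D2:**
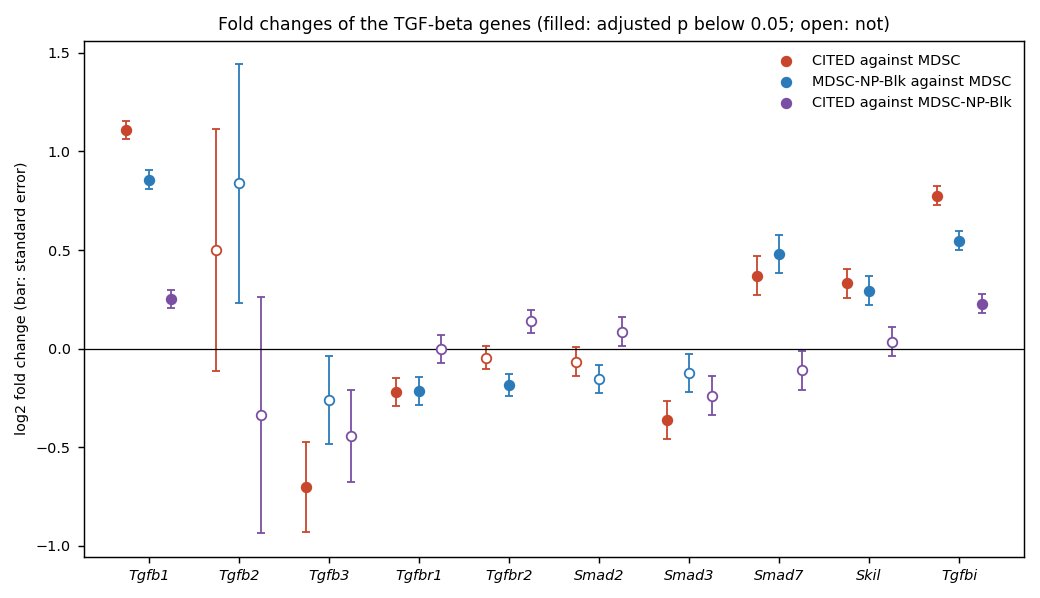
Log2 fold changes of the 10 TGF-beta genes (y axis; bars are standard errors) in the 3 comparisons, from the edgeR fit to all 12 libraries. Filled points passed at an adjusted p below 0.05, and the points of Tgfb1 and Tgfbi lie above 0 in all 3 comparisons.

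The signal carriers fell or did not pass. Smad3 (chr9:63554049-63665476, minus strand), the carrier that binds Smad boxes itself, had 419, 519, 456 and 529 normalized counts for MDSC, 439, 439, 458 and 428 for MDSC-NP-Blk, and 334, 350, 433 and 377 for CITED. CITED replicate 3 (433) lay above MDSC replicate 1 (419), and the other 3 CITED libraries lay below all the rest. Smad3 fell in CITED against MDSC, with a log2 fold change of -0.36 (SE 0.0963, adjusted p = 0.00212), or 1.28-fold lower. It stood at -0.12 in MDSC-NP-Blk against MDSC (adjusted p = 0.333) and at -0.24 in CITED against MDSC-NP-Blk (adjusted p = 0.08), and without CITED replicate 3 the latter passed, at -0.31 (adjusted p = 0.0251). With transcript length removed, the value for CITED against MDSC was -0.20 (adjusted p = 0.0852).

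Smad2 (chr18:76374327-76445180, plus strand), the partner of Smad3, averaged 1079 ± 98.7 for MDSC, 970 ± 49.8 for MDSC-NP-Blk, and 1031 ± 40.5 for CITED (SD, n = 4 each). The groups overlapped, and no comparison passed with TMM factors: the log2 fold change was -0.07 in CITED against MDSC (adjusted p = 0.49), -0.15 in MDSC-NP-Blk against MDSC (adjusted p = 0.0979) and 0.09 between the particle groups (adjusted p = 0.453). Its length correction turned on which transcript was taken as the gene, since the annotation marks a transcript of 1645 bases as canonical while the longest has 9595 bases. For CITED against MDSC the corrected value was -0.25 (adjusted p = 0.00426) with the shorter and 0.25 (adjusted p = 0.00288) with the longer. For MDSC-NP-Blk against MDSC it was -0.32 (adjusted p = 0.000469) and 0.08 (adjusted p = 0.389). On library totals alone both values passed, at -0.34 for CITED (adjusted p = 0.000193) and -0.42 for MDSC-NP-Blk (adjusted p = 1.52e-05), so whether Smad2 fell depended on the scaling.

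Both inhibitors rose. Smad7 (chr18:75500374-75529006, plus strand), which blocks and degrades the type I receptor, had 500, 546, 484 and 392 normalized counts for MDSC, 685, 556, 667 and 787 for MDSC-NP-Blk, and 576, 622, 608 and 679 for CITED. Every library with particles exceeded every MDSC library, and the particle groups overlapped. Smad7 stood at a log2 fold change of 0.37 in CITED (SE 0.0989, adjusted p = 0.0021) and 0.48 in MDSC-NP-Blk (SE 0.0983, adjusted p = 0.000133) against MDSC, and -0.11 in CITED relative to blank particles (adjusted p = 0.486; 95% interval -0.31 to 0.09).

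Skil (chr3:31148816-31176740, plus strand), a repressor of Smad target genes, had 1726, 1747, 1809 and 1971 for MDSC, 1890, 2534, 2481 and 1967 for MDSC-NP-Blk, and 2212, 2464, 2211 and 2235 for CITED. The MDSC-NP-Blk libraries split into replicates 2 and 3, at 2534 and 2481, and replicates 1 and 4, which overlapped MDSC, and this is the split seen in the length trend above, whose part in it was not tested. Skil stood at a log2 fold change of 0.33 in CITED (SE 0.0744, adjusted p = 0.000329) and 0.29 in MDSC-NP-Blk (SE 0.0742, adjusted p = 0.00146), with 0.04 between them (adjusted p = 0.808; 95% interval -0.11 to 0.19). On library totals alone neither inhibitor passed against MDSC, with Smad7 at 0.10 in CITED (adjusted p = 0.442) and 0.22 in MDSC-NP-Blk (adjusted p = 0.0718) and Skil at 0.06 (adjusted p = 0.572) and 0.03 (adjusted p = 0.778), all of them above the median shift of -0.26 under that scaling. With transcript length removed, Skil was instead 0.60 in CITED (adjusted p = 1.05e-10) and 0.47 in MDSC-NP-Blk (adjusted p = 3.52e-08), so its size moved with the correction in both directions.

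Tgfbi (chr13:56757336-56787375, plus strand), a matrix protein named for its induction by TGF-beta and abundant in monocytes, rose in steps as Tgfb1 did. Its normalized counts were 6214, 6972, 6170 and 6349 for MDSC, 9344, 9606, 9370 and 9261 for MDSC-NP-Blk, and 10616, 11284, 11178 and 10945 for CITED. The 3 groups did not overlap anywhere. Tgfbi reached a log2 fold change of 0.78 in CITED against MDSC (SE 0.0472, adjusted p = 7.56e-16), 0.55 in MDSC-NP-Blk against MDSC (SE 0.0471, adjusted p = 1.01e-11) and 0.23 in CITED against MDSC-NP-Blk (SE 0.0469, adjusted p = 0.000319). These calls held under every alternative tried, and those of Tgfb1 did so against MDSC.

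**Figure D3:**
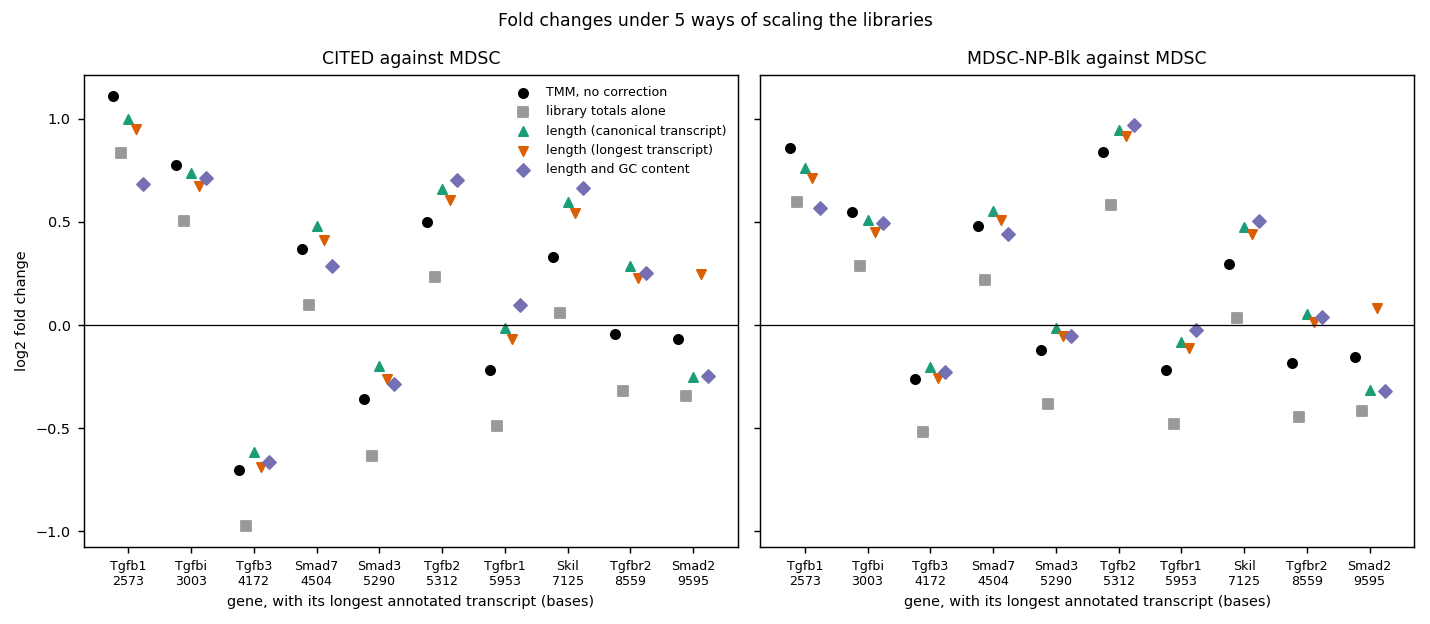
Log2 fold changes against MDSC (y axes) of the 10 TGF-beta genes, ordered by their longest annotated transcript (bases, under each symbol), under 5 ways of scaling the libraries. Tgfb1 and Tgfbi stay above 0 and Tgfb3 and Smad3 below it, while Tgfbr2, Tgfbr1 and Smad2 cross 0 in at least 1 panel.

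Levels of different genes were compared per length, as TPM-type values (counts divided by the length of the canonical transcript and scaled to the same sum in every library). In MDSC, Tgfb1 stood at 341 ± 6.92 and Tgfbi at 224 ± 8.39 (SD, n = 4), far above the other 8. Smad2 followed at 63.0 ± 7.25, then Skil at 24.9 ± 1.96, Tgfbr2 at 24.2 ± 0.359, Tgfbr1 at 15.3 ± 0.609, Smad7 at 10.2 ± 1.22, Smad3 at 8.71 ± 0.928, Tgfb3 at 1.96 ± 0.350 and Tgfb2 at 0.188 ± 0.173. Skil and Tgfbr2 did not differ beyond their spread, nor did Smad7 and Smad3, and with the longest transcript Smad2 came to 13.9, below Tgfbr1 at 19.4. In CITED, Smad3 (5.22 ± 0.696) lay below Smad7 (10.2 ± 0.904) without overlap, and Smad7 and Tgfbr1 (10.2 ± 0.593) were level. Of the summed level of the 3 ligands, Tgfb1 made up 99.4% for MDSC, 99.7% for MDSC-NP-Blk and 99.8% for CITED.

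Ratios between members within a library do not depend on how the library is scaled. The counts of Tgfb1 were 3.61 to 3.77 times those of Tgfbr2 in the MDSC libraries, 6.95 to 8.21 times in MDSC-NP-Blk and 7.97 to 8.36 times in CITED. Against Tgfbr1 they were 8.16 to 8.78, 16.8 to 18.7 and 19.2 to 22.2 times. Both ratios were higher in every library with particles than in any MDSC library. Smad7 had 0.740 to 1.19 times the counts of Smad3 (MDSC), 1.27 to 1.84 times (MDSC-NP-Blk) and 1.41 to 1.80 times (CITED), and Skil had 3.37 to 4.12, 4.31 to 5.77 and 5.11 to 7.05 times those of Smad3. Each of these ratios had an exact two-sided permutation p of 0.0286 against MDSC, the smallest that 4 against 4 allows, and an adjusted p of 0.0624 over the 24 tests of 8 ratios, so none passed. Of the others against MDSC, Tgfbi to Tgfbr2 had the same p in both comparisons, while Smad7 to Smad2 had 0.0571 in both, Tgfbr1 to Tgfbr2 0.0571 for CITED and 0.629 for MDSC-NP-Blk, and Smad2 to Smad3 0.0857 and 0.771, all by the exact permutation test. These 8 ratios were chosen after the values had been seen, and a trend in transcript length within a library would still move them.

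The rest of the pathway was described by 8 lists with 124 tested genes besides the 10. In CITED against MDSC, 45 of them rose and 29 fell, in MDSC-NP-Blk against MDSC 39 rose and 18 fell, and in CITED against MDSC-NP-Blk 22 rose and 20 fell, beside the shares of all genes given above. Their median log2 fold change was 0.06, 0.10 and -0.03. The same shares apply to each list below. They were 22.2% higher and 22.2% lower of all genes tested for CITED against MDSC and 19.9% and 18.6% for MDSC-NP-Blk against MDSC. For CITED against MDSC-NP-Blk they were 10.5% and 11.4%. Among genes with a mean count above 50, 67.9%, 60.4% and 34.9% passed in either direction.

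**Figure D4:**
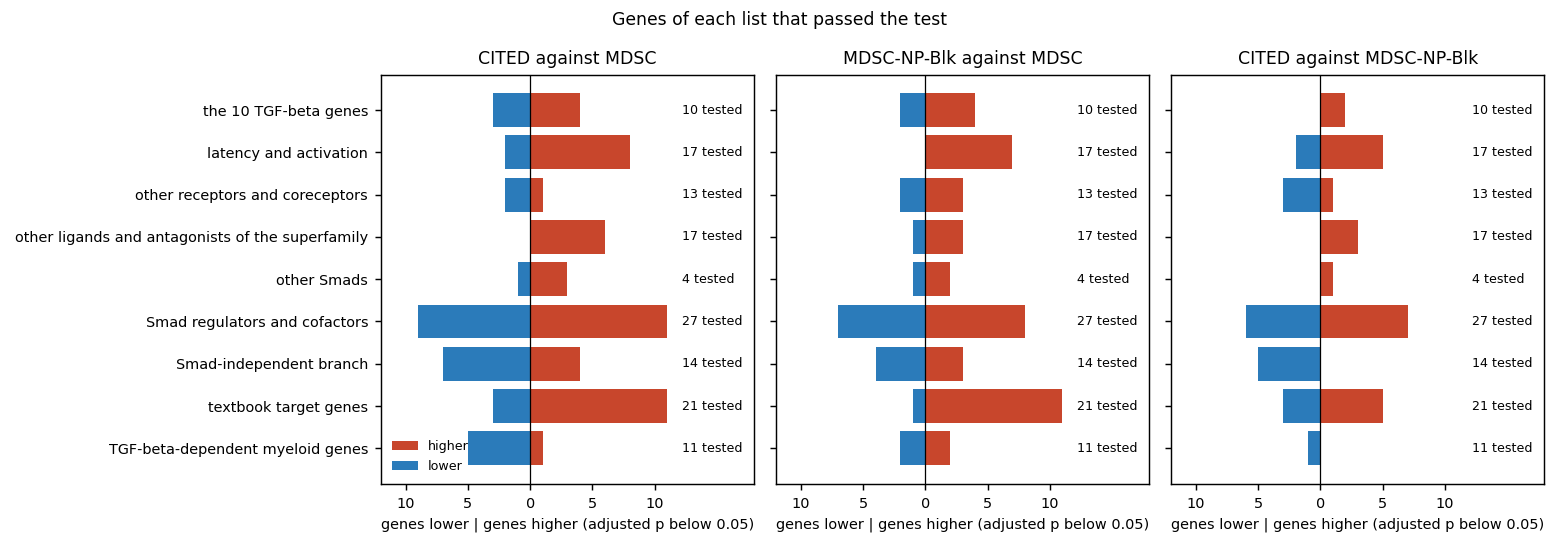
Number of genes of each list that passed at an adjusted p below 0.05, with genes higher to the right of 0 and genes lower to the left, in each comparison, beside the number tested. Of the textbook target genes, 11 of 21 were higher in CITED and 11 of 21 in MDSC-NP-Blk, each against MDSC, beside 22.2% and 19.9% of all genes tested. Among genes with a mean count above 50, 67.9% and 60.4% passed in either direction.

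Of 17 genes that hold TGF-beta latent or release it, 8 were higher and 2 lower in CITED against MDSC, 7 higher and none lower in MDSC-NP-Blk against MDSC, and 5 higher and 2 lower in CITED against MDSC-NP-Blk. Among the 17, 11 had a mean count above 50, a range in which 67.9%, 60.4% and 34.9% of all genes passed. With library totals alone the first 2 counts were 6 higher and 4 lower, and 4 higher and 1 lower. Ltbp3, a latent TGF-beta binding protein, averaged 490 ± 51.8 normalized counts for MDSC, 739 ± 97.2 for MDSC-NP-Blk and 1004 ± 105 for CITED (SD, n = 4 each), with a log2 fold change of 1.03 in CITED against MDSC (adjusted p = 1.6e-11). Nrros, which tethers latent TGF-beta 1 to myeloid cells, passed in CITED against MDSC at 0.48 (adjusted p = 1.17e-08) and against MDSC-NP-Blk at 0.34 (adjusted p = 1.85e-05), but not in MDSC-NP-Blk against MDSC, at 0.13 (adjusted p = 0.0673). Furin, the protease that cuts the propeptide, had the same pattern, at 0.40, 0.29 and 0.11 (adjusted p = 9.86e-09, 1.41e-05 and 0.0733). Lrrc32 (GARP), which tethers latent TGF-beta on regulatory T cells and platelets, fell instead, by 0.27 in CITED against MDSC (adjusted p = 0.0256) and by 0.39 against MDSC-NP-Blk (adjusted p = 0.00365). The first of these calls was lost without MDSC replicate 1 (-0.26, adjusted p = 0.0598) or CITED replicate 2 (-0.20, adjusted p = 0.13). It was also lost with transcript length removed, at -0.16 (adjusted p = 0.199), and with the longest transcript, at -0.22 (adjusted p = 0.0719).

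Some genes of the list encode proteases and matrix proteins that can free the ligand. Mmp9, a gelatinase of neutrophil granules, went from 22715 ± 1860 to 33991 ± 1945 and 53234 ± 1624 (SD, n = 4), a log2 fold change of 1.23 in CITED and 0.58 with blank particles, each against MDSC (adjusted p = 2.02e-20 and 8.88e-12). Mmp14, a membrane-bound metalloprotease, rose by 0.95 and 0.74 in the same comparisons (adjusted p = 9.74e-17 and 1.16e-13). Thbs1, thrombospondin of platelets and macrophages, rose by 0.51 and 0.66 (adjusted p = 6.12e-09 and 3.6e-11). Ltbp1, another latent TGF-beta binding protein, did not pass, at -0.49 in CITED against MDSC (adjusted p = 0.0992), but passed without CITED replicate 4, at -0.87 (adjusted p = 0.0025). It also passed with the replicate number as a block, at -0.54 (adjusted p = 0.0171). With library totals alone, where the median shift was -0.26, it passed at -0.76 (adjusted p = 0.00786). Whether Ltbp1 passed thus depended on the processing.

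Of 13 other receptors and coreceptors, 1 was higher and 2 lower in CITED against MDSC, and 3 were higher and 2 lower in MDSC-NP-Blk against MDSC. Tgfbr3 (betaglycan), which presents ligand to TGFBR2, had 442 to 499 normalized counts for MDSC, 750 to 851 for MDSC-NP-Blk and 485 to 563 for CITED. Without a length correction it was high with blank particles and near the level of unmodified cells with loaded ones. Its log2 fold change was 0.79 in MDSC-NP-Blk against MDSC (adjusted p = 4.29e-10), -0.62 in CITED against MDSC-NP-Blk (adjusted p = 1.96e-07) and 0.17 in CITED against MDSC (adjusted p = 0.0979). With transcript length removed the last of these passed, at 0.38 (adjusted p = 9.37e-05). How near Tgfbr3 in CITED came to unmodified cells thus depended on the correction. Acvrl1 (ALK1), a type I receptor best known from endothelium, fell by 0.63 in CITED and by 0.27 with blank particles, each against MDSC (adjusted p = 1.03e-05 and 0.0416), whereas Acvr1b (ALK4), the type I receptor of activin, rose by 0.45 and 0.49 (adjusted p = 3.37e-08 and 1.23e-08). The call of Acvrl1 in MDSC-NP-Blk was lost when any of MDSC replicates 1, 3 and 4 or MDSC-NP-Blk replicates 2 and 3 was left out, at -0.23 to -0.29 (adjusted p = 0.0502 to 0.122). Markers of endothelium, a list that holds Eng, summed to 1651 to 1744 normalized counts in CITED, below 2187 to 2587 (MDSC) and 2252 to 2496 (MDSC-NP-Blk), with 4 of 10 at a mean above 50 and Emcn and Cldn5 at or under 3 counts in every library, and their part in the fall of Acvrl1 was not tested. Eng (endoglin), a coreceptor of ALK1, did not pass, at 0.14 in CITED (adjusted p = 0.479).

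Among 17 other ligands and antagonists of the superfamily, 6 rose and none fell in CITED against MDSC, and 3 rose and 1 fell in MDSC-NP-Blk. Inhba, the activin A subunit that signals through Acvr1b, rose by 0.46 in CITED and by 0.46 in MDSC-NP-Blk (adjusted p = 4.22e-08 and 9.08e-08). Gdf15, a stress-induced ligand, went from 120 ± 9.33 in MDSC down to 81.7 ± 6.70 in MDSC-NP-Blk and up to 178 ± 14.4 in CITED (SD, n = 4), and it passed in all 3 comparisons, at -0.55 for MDSC-NP-Blk and 0.58 for CITED against MDSC (adjusted p = 0.00481 and 0.0015) and 1.12 between the particle groups (adjusted p = 6.66e-07). The call of Gdf15 in CITED against MDSC was lost with library totals alone, at 0.30 (adjusted p = 0.0952). It was also lost with transcript length and GC content removed, at 0.20 (adjusted p = 0.3), and with the longest transcript, at 0.34 (adjusted p = 0.0664). Lefty1, an antagonist of nodal signaling, rose by 1.23 in CITED against MDSC (adjusted p = 1.35e-05), but 24.9% of the 31-base words of its transcript occur in other genes, so its counts are uncertain.

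The other Smads did not move as a block. Smad4, the common partner of the signal carriers, rose by 0.33 in CITED and 0.29 with blank particles, each against MDSC (adjusted p = 2.2e-05 and 0.000179). Of the carriers of BMP signals, Smad1 rose by 0.31 and 0.34 (adjusted p = 0.0334 and 0.0243) while Smad5 fell by 0.48 and 0.40 (adjusted p = 7.24e-05 and 0.000681). The inhibitory Smad6 rose in CITED against MDSC, by 0.80 (adjusted p = 0.00953), and against MDSC-NP-Blk, by 0.77 (adjusted p = 0.0287), from a mean of 53.9 ± 5.26 in MDSC to 94.4 ± 17.2 in CITED (SD, n = 4), and its value in MDSC-NP-Blk against MDSC was 0.04 (adjusted p = 0.949). Smad1 no longer passed in either comparison without MDSC replicate 1 or 4 (0.21 in CITED and 0.23 in MDSC-NP-Blk without replicate 4), nor in CITED without CITED replicate 3 or 4 or in MDSC-NP-Blk without MDSC-NP-Blk replicate 4. Smad6 no longer passed against MDSC-NP-Blk without MDSC-NP-Blk replicate 2 or 3 or CITED replicate 1, 2 or 3, with a lowest value of 0.54 (adjusted p = 0.145). Both calls of Smad5 were lost with transcript length removed, at -0.21 in CITED (adjusted p = 0.0622) and -0.22 in MDSC-NP-Blk (adjusted p = 0.054). On library totals alone no rise of these Smads against MDSC passed. Smad4 was then at 0.06 in CITED (adjusted p = 0.457) and 0.03 in MDSC-NP-Blk (adjusted p = 0.75), and Smad6 at 0.53 in CITED (adjusted p = 0.0895).

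Of 27 regulators and cofactors of Smads, 11 rose and 9 fell in CITED against MDSC, 8 rose and 7 fell in MDSC-NP-Blk, and 7 rose and 6 fell in CITED against MDSC-NP-Blk. Tgif1, a repressor that binds Smads, had 773 to 973 normalized counts for MDSC, 1806 to 1976 for MDSC-NP-Blk and 2170 to 2493 for CITED, a log2 fold change of 1.47 and 1.14 against MDSC (adjusted p = 4.61e-19 and 1.05e-15). Fkbp1a, which encodes FKBP12, the rapamycin-binding protein of TGFBR1, rose with blank particles as well as with loaded ones, by 0.77 and 0.90 (adjusted p = 3.61e-12 and 3.66e-14), and the 2 particle groups stood 0.13 apart (adjusted p = 0.155). Between the particle groups, members moved both ways. Pmepa1, which takes receptor-activated Smads away from the receptor, was 0.93 higher in CITED than in MDSC-NP-Blk (adjusted p = 1.64e-06) and at 0.02 in MDSC-NP-Blk against MDSC (adjusted p = 0.942). Dab2, an endocytic adaptor that bridges receptors and Smads, was 0.57 higher in CITED than in MDSC-NP-Blk (adjusted p = 1.99e-11), Smurf1, a ubiquitin ligase for Smads and TGFBR1, 0.43 (adjusted p = 1.41e-05), and Ski, the repressor related to Skil, 0.25 (adjusted p = 0.000429). Rbl1 (p107), a partner of Smad3 in shutting off the cell cycle, fell by 1.44 in CITED and by 0.98 with blank particles, each against MDSC (adjusted p = 9.94e-17 and 2.4e-12), and the coactivator Ep300 (p300) by 0.46 and 0.24 (adjusted p = 6.46e-07 and 0.00449). Rbl1 was also lower in CITED than in MDSC-NP-Blk, at -0.46 (adjusted p = 4.55e-05), as were the zinc finger factor Sp1, at -0.26 (adjusted p = 0.000612), and Trim33, a ubiquitin ligase that binds Smads, at -0.29 (adjusted p = 0.00108), which no longer passed with transcript length and GC content removed, at -0.16 (adjusted p = 0.0672). The fall of Ep300 in MDSC-NP-Blk turned to 0.07 once transcript length was removed. Its call in CITED against MDSC was lost as well, at -0.05 (adjusted p = 0.447). With GC content removed too it was -0.09 (adjusted p = 0.106), and with the longest transcript -0.11 (adjusted p = 0.0716).

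**Figure D5:**
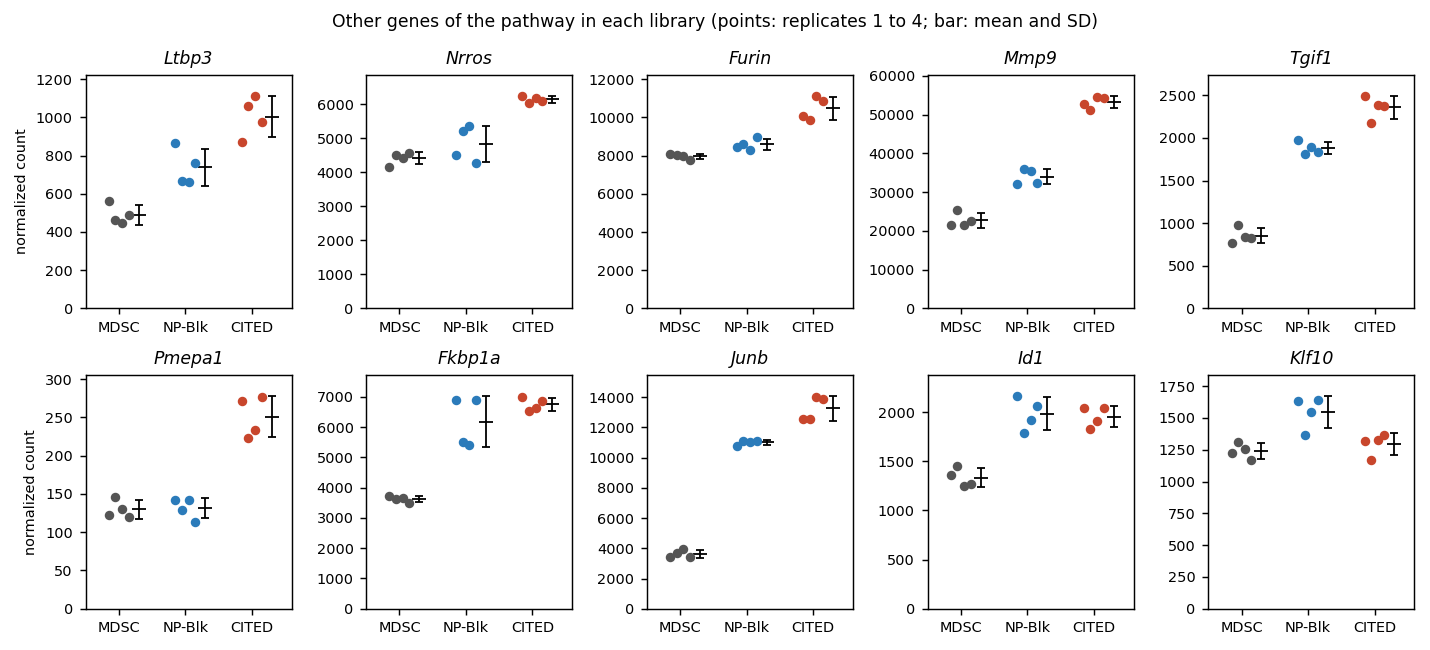
Normalized counts of 10 further genes of the pathway (y axes, from 0) in the 12 libraries, drawn as for the 10 main genes. Ltbp3, Mmp9, Tgif1 and Junb step up from group to group in their means, Pmepa1 is high only in CITED, and Klf10 is highest in MDSC-NP-Blk in its mean.

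Textbook target genes split between those that rose and a few that fell. Of 21 tested, 11 rose and 3 fell in CITED against MDSC, 11 rose and 1 fell in MDSC-NP-Blk against MDSC, and 5 rose and 3 fell in CITED against MDSC-NP-Blk. A mean count above 50 was found for 16 of the 21. The numbers that passed in either direction lay near the shares of such genes, 67.9%, 60.4% and 34.9%. Junb, an AP-1 subunit, rose by 1.87 in CITED and 1.60 with blank particles, each against MDSC (adjusted p = 1.74e-24 and 4.8e-22). Cdkn1a (p21), which arrests the cell cycle, rose by 1.05 and 0.86 (adjusted p = 1.26e-18 and 8.22e-16), the repressor Bhlhe40 by 0.80 and 0.71 (adjusted p = 3.46e-17 and 2.77e-15), and Id1, a helix-loop-helix inhibitor driven mainly by BMP signals, by 0.55 and 0.57 (adjusted p = 1.09e-08 and 8.63e-09). Many other stimuli are known to induce these genes, so they are not a readout of TGF-beta alone. Klf10, an early response gene of TGF-beta, passed with blank particles at 0.32 against MDSC (adjusted p = 0.000284), fell by 0.26 in CITED against MDSC-NP-Blk (adjusted p = 0.00572), and stood at 0.06 in CITED against MDSC (adjusted p = 0.502). With library totals alone its call in MDSC-NP-Blk against MDSC was lost, at 0.05 (adjusted p = 0.562). Id2 rose by 0.15 in CITED against MDSC (adjusted p = 0.0157), a direction that turned with library totals alone and a call that was lost without MDSC replicate 3 or 4 or CITED replicate 1 (0.11, adjusted p = 0.0978). Zeb2, a repressor of E-cadherin that also acts in myeloid development, rose in CITED against MDSC-NP-Blk by 0.33 (adjusted p = 2.61e-05), and its relative Zeb1 fell by 0.55 (adjusted p = 5.02e-05).

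In the branch that does not pass through Smads, 4 of 14 genes rose and 7 fell in CITED against MDSC, 3 rose and 4 fell in MDSC-NP-Blk against MDSC, and none rose and 5 fell in CITED against MDSC-NP-Blk by edgeR. Map3k7 (TAK1), the kinase that TGF-beta receptors reach through TRAF6, fell by 0.45 in CITED and by 0.43 with blank particles, each against MDSC (adjusted p = 5.43e-06 and 1.38e-05), while its adaptor Tab2 rose by 0.36 and 0.38 (adjusted p = 3.52e-08 and 1.42e-08). The call of Tab2 in CITED against MDSC was lost with library totals alone, at 0.08 (adjusted p = 0.147). Of 11 tested genes that depend on TGF-beta in tissue-resident myeloid cells, 1 rose and 5 fell in CITED against MDSC, and 2 rose and 2 fell in MDSC-NP-Blk. Mertk, a receptor for the uptake of dying cells, fell by 1.08 and 0.77 (adjusted p = 2.43e-09 and 1.66e-06). Tmem119, a microglial surface protein, was 0.33 higher in MDSC-NP-Blk than in MDSC (adjusted p = 0.00325) and 0.40 lower in CITED than in MDSC-NP-Blk (adjusted p = 0.00118). The first of these calls was lost with library totals alone, at 0.07 (adjusted p = 0.584). It was also lost with transcript length and GC content removed, at 0.13 (adjusted p = 0.214), and with the longest transcript, at 0.17 (adjusted p = 0.0986).

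The genes whose normalized counts followed a member most closely were ranked by Pearson correlation of log2 values over the 12 libraries, among 10555 genes. For Tgfb1 these were Cdc42ep2 (r = 0.997), Ehd1 (0.997), Ppp1r18 (0.996), Cd37 (0.996) and Pim1 (0.995). For Tgfbi they included Gpr55 (0.996), Spint1 (0.995), Ugt1a7c (0.994) and Arl4c (0.994). The closest gene reached 0.977 for Tgfbr1 (Mgat2), 0.951 for Skil (Ptprj), 0.950 for Smad7 (Macrod1), 0.931 for Smad3 (Zfp748) and 0.876 for Smad2 (Sec24a). The points are the same 3 groups of libraries in each case, so these values describe a shared order of the groups.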

How the data were processed

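Poly(A) RNA of 12 libraries in 3 groups of 4 was sequenced as paired ends. The deposited values are raw counts, whole numbers for each gene symbol, which the authors made with Salmon 1.4.0 on a GENCODE transcriptome of GRCm39 with decoys and summed per gene with tximport in R 4.3.2. The GENCODE release and the strand setting are not given in the sources used here, so reads of overlapping or antisense genes cannot be told apart. Groups and replicate numbers came from the sample titles. The study calls the samples biologically independent, and it is not stated if equal replicate numbers mark a common marrow preparation.

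Symbols that reached 2 counts in total (17676 of them) were fitted in R 4.3.3 with edgeR 4.0.16 (TMM factors, glmQLFit and glmQLFTest, group as the only term, robust estimation off), and p-values were adjusted over all genes tested by the method of Benjamini and Hochberg. Standard errors came from the log2 fold change and the root of its F value. The test was tried on simulated data with known changes. Limits on missed and false calls were set there only for data without a trend in transcript length, whereas these libraries have such a trend. Alternatives were DESeq2 1.42.0, relative log expression size factors, library totals alone, 2 other filters, the 8 libraries of a comparison, a replicate block, loess removal of transcript length and of length with GC content (span 0.5), and each library left out. A length correction with the longest transcript and the within-library ratios were added after seeing the data. Transcript lengths came from GENCODE M39. A single entry with an empty symbol, with 0 counts, was left out.

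The 10 genes, the 8 pathway lists and the 11 marker lists were chosen with earlier results of these data known. From each pathway list, the text draws on the 3 genes with the lowest p in each direction among those that passed with a mean count above 50, plus 18 genes taken whatever their values, and names a part of them. Results for some of these genes are not reported here.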

Additional observations from a re-analysis of the deposited data

Results flagged for a closer look

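Of 30 sets of 4 libraries (10 genes in 3 groups), 1 held a library far from the other 3 by Dixon's criterion at the 95% level, fewer than the 1 in 20 that chance gives. Skil in CITED replicate 2 had a normalized count of 2464, and the other CITED libraries had 2211 to 2235. Without that library the log2 fold change of Skil in CITED against MDSC stayed above 0 and past the test, within the range of 0.29 to 0.37 found by leaving out each library in turn.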

How the results depend on the processing

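Over the 10 genes and 3 comparisons (30 values), DESeq2, relative log expression size factors, both other filters and the fit to the 8 libraries of a comparison kept 28 to 30 on the same side of the threshold and of 0. Library totals alone kept 22, removal of length 21, of length with GC content 20, and of length by the longest transcript 22. Called values changed sign only for Tgfbr2 and Tgfbr1: in CITED against MDSC, Tgfbr1 was 0.10 with length and GC content removed, and in MDSC-NP-Blk against MDSC, Tgfbr2 was 0.053 with length removed, 0.038 with GC content as well and 0.014 with the longest transcript. Uncalled values that turned were Tgfbr2 in CITED against MDSC (0.29, 0.25 and 0.23 under those 3 corrections) and Smad2 with the longest transcript (0.25 in CITED and 0.081 with blank particles, each against MDSC). Tgfbr1 in CITED against MDSC-NP-Blk, near 0 throughout, was 0.067, 0.12 and 0.046 under the corrections, 0.0012 with DESeq2, 0.0028 with the other size factors and 6.1e-05 in 8 libraries. The counts of the 10 genes moved with library totals alone, to 2 higher and 5 lower in CITED against MDSC and 2 higher and 4 lower in MDSC-NP-Blk against MDSC. Genes lower in MDSC-NP-Blk against MDSC came to 1 with length removed, 1 with GC content as well and 0 with the longest transcript. Left out in turn, each library gave 0 to 1 genes lower in CITED against MDSC-NP-Blk, where Tgfbr1 ranged from -0.027 to 0.029 and Skil from -0.031 to 0.11 on the log2 scale, and 0.50 to 1.72 for Tgfb2 in MDSC-NP-Blk against MDSC, the highest without MDSC replicate 2 (adjusted p = 0.0429), where Smad2 was also called, at -0.20 (adjusted p = 0.031). Of the other pathway genes, those higher and lower went from 45 and 29 to 29 and 46 in CITED against MDSC and from 39 and 18 to 21 and 43 in MDSC-NP-Blk against MDSC with library totals alone, and in CITED against MDSC those lower came to 16 with length removed and 18 with GC content as well. Among the other genes named, library totals alone turned Tgfbr3 (-0.11), Eng (-0.13), Klf10 (-0.21) and Id2 (-0.12) in CITED against MDSC and Dab2 (-0.13) in MDSC-NP-Blk against MDSC. Length by the longest transcript turned Klf10 (-0.034) in CITED against MDSC, and Ep300 in MDSC-NP-Blk against MDSC was 0.066, 0.047 and 0.021 under the 3 corrections. With length removed and with GC content as well, Sp1 in CITED against MDSC was 0.033 and 0.085 and Trim33 in MDSC-NP-Blk against MDSC 0.042 and 0.054. The cause was not tested. Same-numbered libraries did not deviate together (mean correlation over 10543 genes 0.010, -0.017 and 0.051 in the 3 comparisons), so the numbers were not taken as pairs, and with the replicate block no call of the 10 genes changed, with Tgfbr1 in CITED against MDSC-NP-Blk at 0.00095. With the longest transcript, 27 of 30 levels per length moved by more than their SD. Of 94 values of other named genes, library totals alone kept 77 on the same side of the threshold and of 0, the 3 corrections 82 to 83, and the other alternatives without a library left out 93 to 94. Tgfb2, with 3 to 36 counts a library, was limited by depth.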
